A study of Homo sapiens with 19 samples.

Results

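A small population of POU5F1-positive cells was described in human liver organoids grown on ultra-low attachment (ULA) plates. The members were chosen by measured values: a cell belonged when it held at least 500 detected genes, at most 20% of its counts from mitochondrial genes, at least 1 count of POU5F1 and at least 1 count of NANOS3, UTF1 or TAC3. By this rule 292 of 34289 kept cells of the ULA libraries were members, or 0.852% (95% Wilson interval 0.760% to 0.955%, counting error only). They are called the POU5F1 cells below, and the remaining 33997 kept cells of the same libraries are called the other cells. A count is a unique molecular identifier (UMI), 1 captured RNA molecule read from its 3′ end. The organoids were made from the human pluripotent stem cell line W01 (WiCell, wild-type) and were untreated. In the ULA arm 3 libraries were made at day 21 and 2 at day 34, all with 10x Genomics single-cell 3′ v3 chemistry. Day 34 organoids received 1 more wash and 10 more minutes of trypsin than day 21 organoids, so day and dissociation cannot be told apart. The labels name 1 cell line and do not say whether replicates were separate cultures, so p-values measure only the spread between these libraries.

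POU5F1 (OCT4) is a transcription factor of pluripotent cells that human germ cells keep after they are set aside from the embryo's body tissues. Early human germ cells, called primordial germ cells, run it together with SOX17, TFAP2C, PRDM1 and NANOG, where SOX17 stands in the place that SOX2 holds in pluripotent stem cells. NANOS3 is an RNA-binding protein of germ cells, and germ cells that have reached the gonad switch on DDX4 and DAZL. A POU5F1-positive cell in an organoid can therefore be compared with either programme through SOX17 and SOX2.

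The 5 ULA libraries held 73799160 to 92522222 UMIs in total and 4326 to 12427 kept cells each, with median depths of 5959 to 14304.5 UMIs per kept cell. Over all 19 libraries of the series 120240 of 138053 barcodes were kept. The POU5F1 cells together held 4593613 UMIs, of which 4105806 came from day 21 and 487807 from day 34. Their median depth was 11984.5 UMIs. In each library it was above that of all kept cells, for example 9445 against 5959 UMIs in day 34 replicate 2. Their median mitochondrial share was below that of the other cells in every library, from 3.72% against 3.892% to 8.898% against 11.08%. No barcode of a POU5F1 cell was also the barcode of a POU5F1 cell in another ULA library. Day 34 replicate 1 held 8 POU5F1 cells. Calls lost without it are named for the early germ cell genes and for the genes named by size of change. For other mesenchymal and hepatocyte genes only the number passing is given.

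The POU5F1 cells were found in all 5 ULA libraries and were a larger share of the cells at day 21 than at day 34. At day 21 they were 76 of 5902 cells (1.288%, 95% Wilson interval 1.03% to 1.609%) in replicate 1. Replicate 2 held 115 of 5335 (2.156%, 1.799% to 2.581%) and replicate 3 held 67 of 6299 (1.064%, 0.8385% to 1.348%). At day 34 they were 8 of 4326 (0.1849%, 0.09374% to 0.3645%) in replicate 1 and 26 of 12427 (0.2092%, 0.1428% to 0.3064%) in replicate 2. The days did not overlap, and replicate 2 was the high library within day 21. The mean share was 1.503% ± 0.5768 (SD, n = 3) at day 21 and 0.1971% ± 0.01718 (SD, n = 2) at day 34, a 7.626-fold difference. An exact two-sided permutation test over libraries gave p = 0.1, which is the smallest value that the 10 arrangements of 3 against 2 libraries allow, so the design cannot reach a threshold of 0.05. When each cell was thinned to 3000 UMIs, with shallower cells left out, the shares were 1.109%, 1.843% and 1.12% at day 21 and 0.1405% and 0.1865% at day 34.

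**Figure D1:**
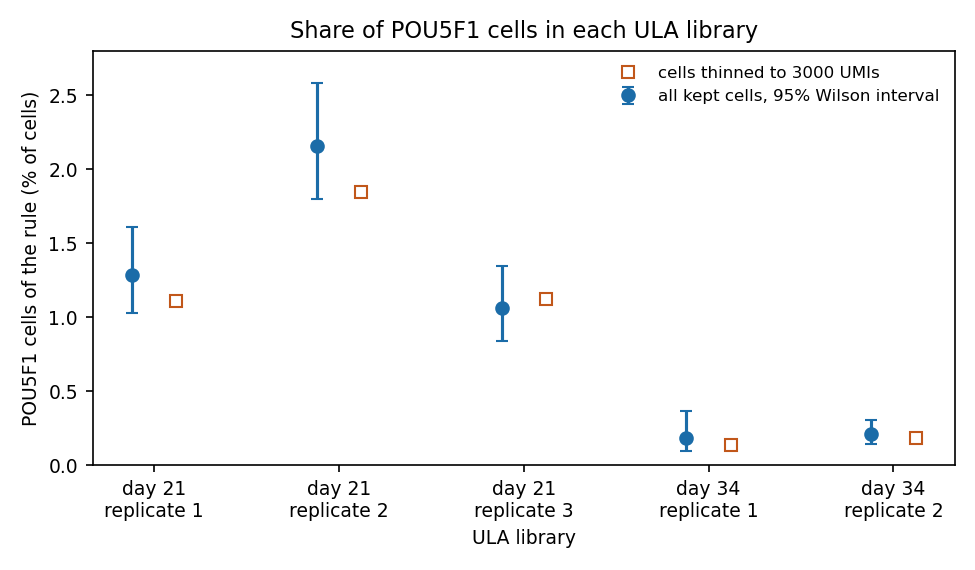
Share of POU5F1 cells (% of cells, y axis) in each of the 5 ULA libraries (x axis). Filled points are all kept cells with 95% Wilson intervals and open squares are cells thinned to 3000 UMIs; the 3 day 21 libraries lie between 1.064% and 2.156% and both day 34 libraries at or below 0.2092%.

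The genes that chose the cells are described here without a test. They lie on GRCh38 (GENCODE v44 gene spans) at chr6:31164337-31180731 on the minus strand for POU5F1, at chr19:13862063-13880757 on the plus strand for NANOS3, at chr10:133230217-133231558 on the plus strand for UTF1 and at chr12:57010000-57028883 on the minus strand for TAC3. UTF1 is a chromatin-associated protein of pluripotent and germ cells, and TAC3 encodes the tachykinin neurokinin B. All 3 of NANOS3, UTF1 and TAC3 were detected together in 242 of the 292 cells, 25 cells held 2 of them and 25 held 1. NANOS3 was detected in 268 cells, UTF1 in 258 and TAC3 in 275. The median POU5F1 cell held 21 UMIs of POU5F1, 18 of NANOS3, 6 of UTF1 and 14.5 of TAC3. The level of a gene is given as CPM, its UMIs scaled to the total UMIs of the summed cells of a library. POU5F1 stood at 1400, 1740 and 1330 CPM in the day 21 POU5F1 cells and at 643 and 951 CPM at day 34. In the other cells POU5F1 lay between 0.0987 and 0.662 CPM. Of all POU5F1 UMIs in kept ULA cells 98.55% came from the POU5F1 cells, against 98.33% for UTF1, 78.89% for NANOS3 and 68.86% for TAC3.

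At the edge of the rule the counts were low. Just inside it were 23 cells with 1 POU5F1 UMI, 14 of which held only 1 further UMI over NANOS3, UTF1 and TAC3. Just outside were 84 kept cells with POU5F1 but none of those 3 genes, and 80 of the 84 held a single POU5F1 UMI. Another 12 cells held the genes of the rule but failed a cell filter, 11 of them with a mitochondrial share above 20% (lowest 20.57%) and 2 with fewer than 500 genes, 1 of which failed both filters. The highest mitochondrial share inside the rule was 19.5% and the fewest genes were 587.

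The 4 transcription factors of the early germ cell programme were high in the POU5F1 cells of every library, and SOX2 was nearly undetected. SOX17 stood at 311, 235 and 253 CPM at day 21 and at 165 and 148 CPM at day 34, against 0.258 to 2.65 CPM in the other cells. NANOG stood at 223, 187 and 215 CPM at day 21 and at 117 and 140 CPM at day 34, against 0.297 to 0.572 CPM. TFAP2C, which opens germ cell enhancers, stood at 147, 168 and 201 CPM and then at 34.7 and 69.9 CPM, against 5.17 to 15.2 CPM in the other cells. PRDM1 (BLIMP1), a repressor of somatic genes, stood at 80.5, 64.2 and 110 CPM and then at 52.1 and 89.3 CPM, against 4.81 to 8.44 CPM. For each of the 4 genes the lowest POU5F1-cell library was above the highest library of the other cells. SOX2 gave 2 UMIs in all 292 cells, with 0, 0.63 and 0 CPM at day 21 and 0 and 3.88 CPM at day 34, while the other cells held 2.5 to 5.82 CPM. All 3 day 21 libraries of POU5F1 cells were below those of the other cells, and at day 34 the depth is too low to place SOX2 above or below them.

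The difference between the POU5F1 cells and the other cells was tested on UMI sums per library in the 4 libraries with at least 10 POU5F1 cells, with the library as a block (edgeR's quasi-likelihood test, Benjamini-Hochberg adjustment over 18210 genes). In it 6431 genes passed an adjusted p of 0.05, or 35.3%, with 15.5% higher and 19.8% lower, and the median log2 fold change over all genes was -0.15. SOX17 was higher by a log2 fold change of 7.06 ± 0.17 (SE, adjusted p = 2.6e-30). NANOG was higher by 8.62 ± 0.16 (adjusted p = 3.4e-34), TFAP2C by 4.43 ± 0.22 (adjusted p = 5.5e-20) and PRDM1 by 3.66 ± 0.16 (adjusted p = 5.4e-22). SOX2 was lower, with a log2 fold change of -3.04 ± 0.77 (adjusted p = 0.0015).

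Detection per cell showed the same contrast. At least 1 UMI of SOX17 was found in 82.9% of the POU5F1 cells, of NANOG in 78.8%, of TFAP2C in 76.0% and of PRDM1 in 57.9%. The collagen class was defined as kept cells outside the rule with at least 5 UMIs over COL1A1, COL1A2, COL3A1, DCN and LUM (25139 cells, median depth 9834 UMIs). In that class the shares were 0.251%, 0.569%, 8.98% and 5.28% for the same genes. These cells can express the genes themselves, so the shares do not measure free RNA, whose part was not tested. SOX2 was found in 0.685% of the POU5F1 cells and in 1.18% of the collagen class, so its share was no higher in the POU5F1 cells. After thinning every cell to 3000 UMIs the shares in POU5F1 cells were 52.5% for SOX17, 43.57% for NANOG, 35.71% for TFAP2C and 24.29% for PRDM1, against 0.2372%, 0.1423%, 2.622% and 1.714% of the other cells. No thinned POU5F1 cell held SOX2.

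**Figure D2:**
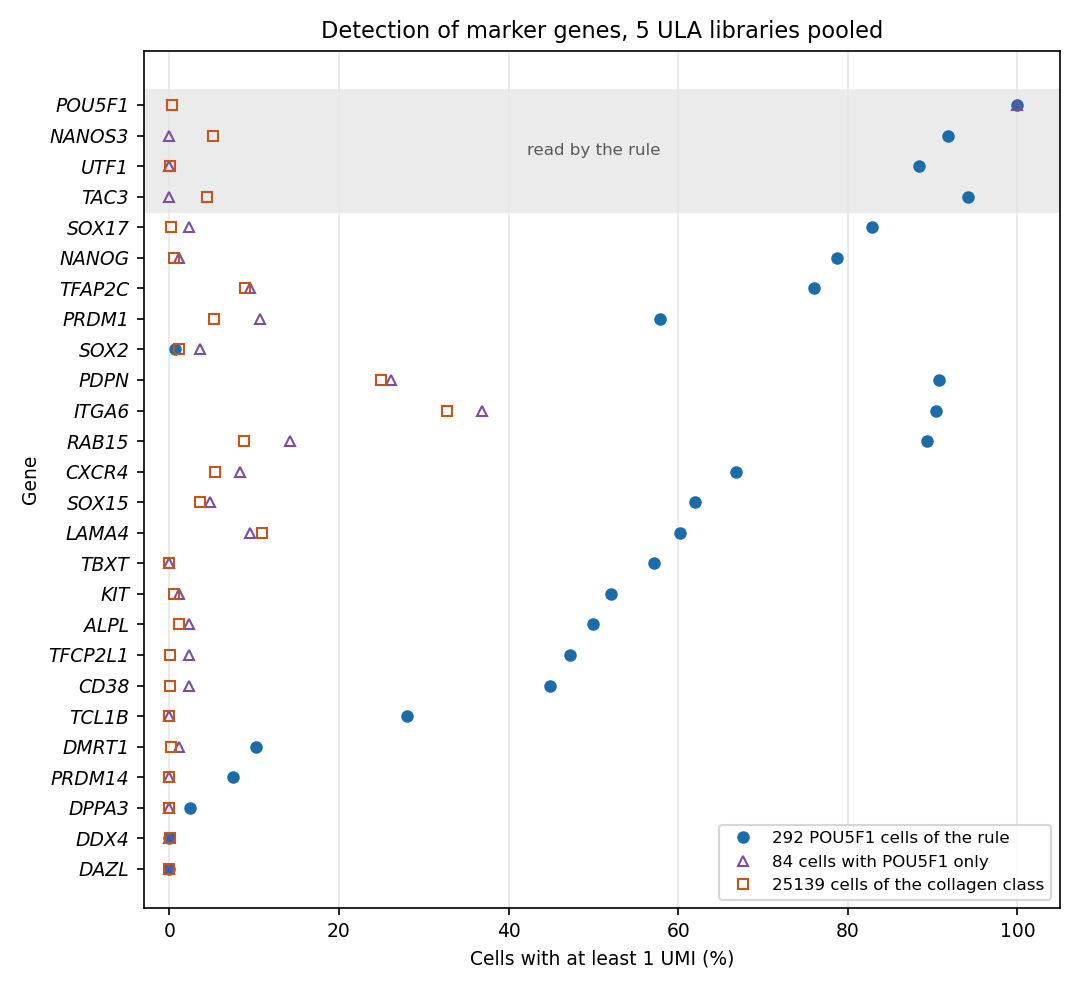
Percentage of cells with at least 1 UMI (x axis) of each gene (y axis) in the 292 POU5F1 cells, the 84 cells with POU5F1 only and the 25139 cells of the collagen class, 5 ULA libraries pooled; shaded genes are those read by the rule. SOX17 is in 82.9% of the POU5F1 cells and SOX2 in 0.685%, while DDX4 and DAZL are at 0 in them.

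The factors were found in the same cells. SOX17 and NANOG were detected together in 211 of the 292 POU5F1 cells, and 210 of these held no SOX2 UMI. All 4 of SOX17, TFAP2C, PRDM1 and NANOG were detected in 116 cells, 3 in 96, 2 in 46, 1 in 19 and none in 15. Among the other cells, none held all 4, 5 held 3 and 169 held 2. SOX17 without SOX2 was seen in 241 POU5F1 cells, SOX2 without SOX17 in 1, both in 1 and neither in 49. The 49 cells with neither gene had a median of 2 POU5F1 UMIs, against 23 in the cells with SOX17 but no SOX2.

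Most early germ cell genes were higher in the POU5F1 cells, while of 14 later germ cell genes 7 could be tested and 2 were higher. Of 19 early germ cell genes (NANOS3, which the rule read, left out), 17 could be tested, 16 were higher and none was lower, with a median log2 fold change of 4.84 beside -0.151 over all genes. Genes nearly absent from the other cells, such as TCL1B and PRDM14, could pass the low-count filter only by being high in the POU5F1 cells. Their direction was fixed in advance by the filter. Counts of higher genes and list medians, here and in the lists below, are therefore a description only. Counts of higher genes in a list are set beside the 15.5% of all genes that were higher, and counts of lower genes beside the 19.8% that were lower. In 14 of the 19 genes the POU5F1 cells were above the other cells in all 5 libraries. The share of all genes above in all 5 libraries was not computed, so this count is a description only. KIT, the receptor through which germ cells receive survival and migration signals, stood at 50.3, 52.9 and 57.7 CPM at day 21 and at 56.5 and 50.5 CPM at day 34, against 0.296 to 0.722 CPM in the other cells. It was higher by a log2 fold change of 6.40 ± 0.26 (edgeR adjusted p = 1.8e-22), and it was the early germ cell gene whose level differed least between the days, together with CXCR4.

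The surface genes of the list included PDPN, the podoplanin used to sort human germ cells, with 491, 533 and 459 CPM at day 21 and 200 and 190 CPM at day 34 against 23.1 to 37.1 CPM (log2 fold change 3.90). CD38 was higher by 9.23, ITGA6, an integrin chain, by 2.04, CXCR4, the chemokine receptor that guides germ cell migration, by 4.0 and ALPL, the tissue-nonspecific alkaline phosphatase, by 5.55. Among regulators, TFCP2L1 was higher by 8.0, SOX15 by 6.12, PRDM14 by 8.33 and KLF4 by 1.85 on the log2 scale. PRDM14, which restrains somatic fate, rested on 24 UMIs in POU5F1 cells and 6 in the other cells and was detected in 7.53% of POU5F1 cells. The AKT coactivator gene TCL1B gave 118 UMIs against 2 in the other cells, a ratio per UMI of 5180 (95% interval 1400 to 43200, counting error only). DND1, the partner of NANOS proteins, did not pass the test (0.76, adjusted p = 0.23). DPPA3 with 9 UMIs and TCL1A with 1 UMI in the POU5F1 cells were too low to test.

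Of 14 later germ cell genes 7 could be tested and 2 were higher, the sex-determination factor DMRT1 (5.68, in 10.3% of the POU5F1 cells) and STK31 (3.41, on 8 UMIs), with a list median of 1.32. Of the 14 genes 9 gave at least 1 UMI in the POU5F1 cells, and apart from DMRT1 with 39 UMIs each gave at most 8. The summed level of the list was 12.22 to 34.75 CPM in the POU5F1 cells and 3.553 to 5.18 CPM in the other cells, higher in each of the 5 libraries. DDX4 and MAEL, both of the piRNA pathway, gave no UMI in the 292 cells, which allows up to 1.027% of cells with a UMI of either. DAZL, SYCP1 and STRA8 gave no UMI in any kept ULA cell. Without the cells of highest doublet score, or with all 5 libraries, 1 of the 2 later genes passed.

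The pluripotency genes are given by list, and differences between the lists were not tested. Among 13 tested genes that stem cells share with germ cells, 8 were higher and CDH1 (E-cadherin, -1.02) was lower, with a median of 0.826. NANOG was one of the 8, and L1TD1, an RNA-binding protein, stood at 165 to 404 CPM in the POU5F1 cells against 17.9 to 56.3 CPM in the other cells (log2 fold change 3.58). TDGF1 (7.87, on 14 UMIs), DPPA4 (3.15) and LIN28A (2.81) were higher too. Among 8 tested genes of primed pluripotency 3 were higher, namely SFRP2, a secreted WNT modulator (4.74), VRTN (8.49) and FGF2 (1.78). SOX2 was lower and the list median was -0.151. The summed level of the primed list was 178.1 to 255 CPM in the POU5F1 cells and 53.43 to 101.9 CPM in the other cells, higher in each of the 5 libraries. DNMT3B, the de novo DNA methyltransferase of primed cells, did not pass (-0.33, adjusted p = 0.53). ZIC2 and OTX2 gave 2 and 3 UMIs in the POU5F1 cells and were not tested. Of 9 naive pluripotency genes 3 were tested. TFAP2C, also on the early germ cell list, and SUSD2, a surface marker of naive cells (8.27), were higher, and KLF5 was lower (-1.76).

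**Figure D3:**
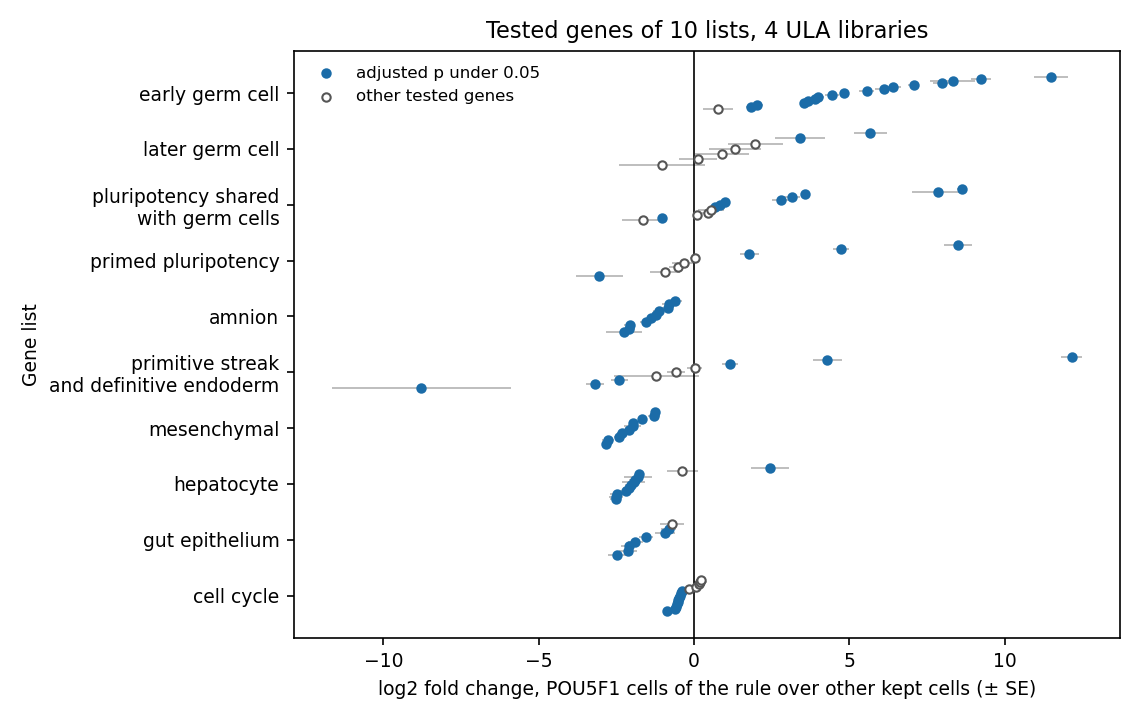
Log2 fold change of the POU5F1 cells over the other kept cells (x axis, ± SE) for every tested gene of 10 lists (y axis), from the 4 ULA libraries with at least 10 POU5F1 cells; filled points passed an edgeR adjusted p of 0.05. In the early germ cell list 16 of 17 tested genes are filled to the right of 0, and in the amnion and mesenchymal lists all 10 are filled to the left. Genes nearly absent from the other cells could enter only by being high in the POU5F1 cells, so counts to the right are a description only.

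Genes of other cell types were lower in the POU5F1 cells, with few exceptions. All 10 amnion genes, among them TFAP2A, GATA3 and ISL1, were lower (median -1.29), as were all 10 mesenchymal genes (median -2.03). Of 12 hepatocyte genes 10 were lower (median -1.99), ALB did not pass, and transferrin, TF, was higher (2.45) on 13 UMIs. Gut epithelial genes were lower in 7 of 8 cases and squamous genes in 5 of 5 tested. Neither of the 2 tested trophoblast genes passed. Without the library block, 6 amnion genes and 4 hepatocyte genes passed. In the primitive streak and definitive endoderm list, TBXT (brachyury), MIXL1 (4.29) and GATA4 (1.16) were higher, while FOXA1 (-2.40) and GATA6 (-3.19) were lower. GSC also passed as lower, but it had no UMI in the POU5F1 cells of the 4 tested libraries, so its fitted value, the leftmost point of the plot of fold changes by list, is no bound. Its only UMI in POU5F1 cells was in day 34 replicate 1, which was not in this test. TBXT stood at 89.8, 58.5 and 93.3 CPM at day 21 and at 65.1 and 46.6 CPM at day 34, against at most 0.023 CPM in the other cells. That is 350 UMIs against 5, a log2 fold change of 12.15 ± 0.34 (edgeR adjusted p = 6.3e-28), and TBXT was detected in 57.2% of POU5F1 cells. TBXT too could pass the low-count filter only by being high in the POU5F1 cells, so its direction was fixed in advance. Of the cell cycle list 10 of 15 genes were lower by small amounts (median -0.443), and none of the 15 passed without the library block. MKI67, which marks dividing cells, was detected in 33.9% of the POU5F1 cells and 32.9% of the other cells.

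Among regulators of DNA methylation, 2 of 7 tested genes passed, in opposite directions, beside the 35.3% of all genes that passed. TET1, which oxidises methylated cytosine, was higher in the POU5F1 cells (1.41), and UHRF1, which maintains methylation through replication, was lower (-1.53). Of 9 targets of BMP signalling, the pathway that induces germ cells, 4 were lower (ID3, ID2, MSX1 and BAMBI), beside 19.8% of all genes, and none was higher. In the endothelial list CLDN5 and PECAM1 were higher, on 31 and 7 UMIs over the 5 libraries. ERG passed as lower with no UMI in the POU5F1 cells of the 4 tested libraries, while in day 34 replicate 1, outside this test, it stood at 4.34 CPM on 1 UMI, against 3.34 CPM in the other cells.

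The genes named for the largest differences included several known only by clone or LINC names. AC009446.1 gave 594 UMIs in the POU5F1 cells against 1 in the other cells, a ratio per UMI of 52100 (95% interval 9320 to 2060000). AC104257.1 was higher by a log2 fold change of 12.41 and LINC00678 by 12.00, and AC136628.4 and AL117378.1 by 11.35 and 11.20. AC018462.1 gave 157 UMIs against 3, a ratio of 4590 (1540 to 22500), and NPFF, a neuropeptide precursor gene, gave 109 against 2, a ratio of 4780 (1290 to 40000). ABHD12B stood at 106, 112, 103, 21.7 and 109 CPM in the 5 libraries against at most 0.0902 CPM (10.96). On the other side was TAC1, the tachykinin precursor gene of substance P, with 3.59, 0, 0.888, 0 and 0 CPM in the POU5F1 cells and 23.1 to 98.5 CPM in the other cells (-5.63 ± 0.34). TAC3, from the same peptide family, is one of the genes of the rule. The other named lower genes were FGG, a fibrinogen chain (-4.87), MGP, a matrix protein (-4.43), NNMT (-4.38) and SUCNR1 (-4.24). MGP did not pass without the library block (adjusted p = 0.055).

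Some genes were seen in POU5F1 cells and in no other kept ULA cell. By the ratio of detected shares over the 5 libraries pooled, among genes seen in at least 10 POU5F1 cells, 8 genes led with no other cell at all, from AC019155.2 and LINC02406, each in 20 POU5F1 cells, through LILRA4 (14), LINC02523 and SIGLECL1 (13 each), AC011474.1 (12) and OR6K6 (11) to LRRC38 (10). AC009446.1 followed in 190 POU5F1 cells and 1 other cell, and AC092666.1 in 46 and 1. These counts describe likeness to the rule and carry no test.

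Among themselves the POU5F1 cells varied with the number of genes of the rule that they held. SOX17 was detected in 12.0%, 80.0% and 90.5% of the cells with 1, 2 and 3 of NANOS3, UTF1 and TAC3. NANOG was detected in 4.0%, 56.0% and 88.8% of them, and the median POU5F1 count was 1, 7 and 23 UMIs. Their median depths were 12425, 7087 and 12293 UMIs, so the cells with 2 of the genes were shallower. The part of depth in these shares was not tested. COL3A1, the collagen that most other cells of these organoids held, was detected in 76.0%, 12.0% and 24.8%. Of the 25 cells with 1 gene, 19 held TAC3 only. A clustering of all kept ULA cells that left out the 4 genes of the rule, made after the values were seen, gave 27 clusters. One of 275 cells held 268 of the 292 POU5F1 cells (91.78%), and 97.45% of its cells were POU5F1 cells. The remaining 24 were spread over 11 clusters, held a median of 1 POU5F1 UMI and had COL3A1 in 21 of 24 cells. That cluster made up 1.254%, 1.987% and 1.016% of the day 21 libraries and 0.1387% and 0.2012% of the day 34 libraries.

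Kept cells with POU5F1 but without NANOS3, UTF1 and TAC3 carried little of this programme. In these 84 cells SOX17 was detected in 2.38%, NANOG in 1.19%, TFAP2C in 9.52% and PRDM1 in 10.7%, against 0.251%, 0.569%, 8.98% and 5.28% of the collagen class, and COL3A1 was in 84.5% of them. Tested over the 5 libraries, 806 of 3948 genes (20.4%) differed, with 11.3% higher and 9.09% lower in the POU5F1 cells (edgeR, adjusted p under 0.05). Of 11 tested early germ cell genes 10 were higher (median 3.11 beside -0.0084 over all genes), with KLF4 the exception, and 14 of 14 without day 34 replicate 1. Genes nearly absent from the POU5F1-only cells, such as NANOG, could pass the low-count filter only by being high in the POU5F1 cells. Their direction was fixed in advance by the filter, so these list counts and the fold changes of such genes are a description only. NANOG, with 1 UMI in the POU5F1-only cells, was higher by 7.47 ± 0.43 on the log2 scale. KIT was higher by 5.65, SOX17 by 4.14, TFAP2C by 3.92, PDPN by 3.11 and PRDM1 by 2.48. ITGA6 did not pass without day 21 replicate 1. The antimicrobial peptide gene DEFB1 gave no UMI in the POU5F1-only cells and was at least 134-fold higher in the POU5F1 cells, taking 3 counts over the group as the floor. On the same floor AC009446.1 was at least 52.6-fold, the embryonic stem cell transcript ESRG 45.7-fold, LINC00678 41.1-fold, ESAM, an endothelial adhesion molecule, 36.8-fold, TBXT 31-fold and LINC01612 23.6-fold higher. GSTA2 and AL591742.2 were higher by 7.31 and 7.0 on the log2 scale. Of 7 tested mesenchymal genes 6 were lower in the POU5F1 cells (median -1.64), and 1 passed without the library block. Named lower genes were DNM3OS (-3.03), CDH11 (-2.81), SFRP1 (-2.58), FN1, fibronectin (-2.50), and PRRX1 (-2.49). PRRX1 missed the threshold without each day 21 replicate in turn (adjusted p = 0.051 to 0.075) and without the library block (adjusted p = 0.22). The number of genes passing was 423 without day 21 replicate 1 and 408 without day 21 replicate 2.

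The days were then compared within the POU5F1 cells. Of 9783 genes 167 passed (1.71%), 123 higher at day 34 (1.26%) and 44 lower (0.45%) by edgeR's quasi-likelihood test, and 1510 had an unadjusted p under 0.05. The count was 111 without day 21 replicate 2, 81 without day 21 replicate 3, 95 without day 34 replicate 1 and 441 without day 34 replicate 2. Where 1 day 34 library remains, it is assumed to vary like the day 21 libraries.

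Of the early germ cell genes 2 of 16 tested were lower at day 34 and none was higher, with a list median of -0.6. DND1 (2.79, adjusted p = 0.083) passed as higher without day 34 replicate 2 (adjusted p = 0.047), without the filter on low counts (0.03) and with a replicate block (0.038). PDPN had a log2 fold change of -1.43 ± 0.27 (adjusted p = 0.012), from the levels given above, with no overlap between the days. TFAP2C changed by -1.79 ± 0.34 (adjusted p = 0.013) and did not pass without day 34 replicate 1 (adjusted p = 0.10). SOX17 (-0.85, adjusted p = 0.13), NANOG (-0.78, adjusted p = 0.16), PRDM1 (-0.33, adjusted p = 0.69), TBXT (-0.61, adjusted p = 0.41) and KIT (-0.09, adjusted p = 0.93) did not pass. In both day 34 libraries SOX17 and NANOG were below every day 21 library, while the PRDM1 and KIT levels of the days overlapped. SOX2 was too low to test.

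**Figure D4:**
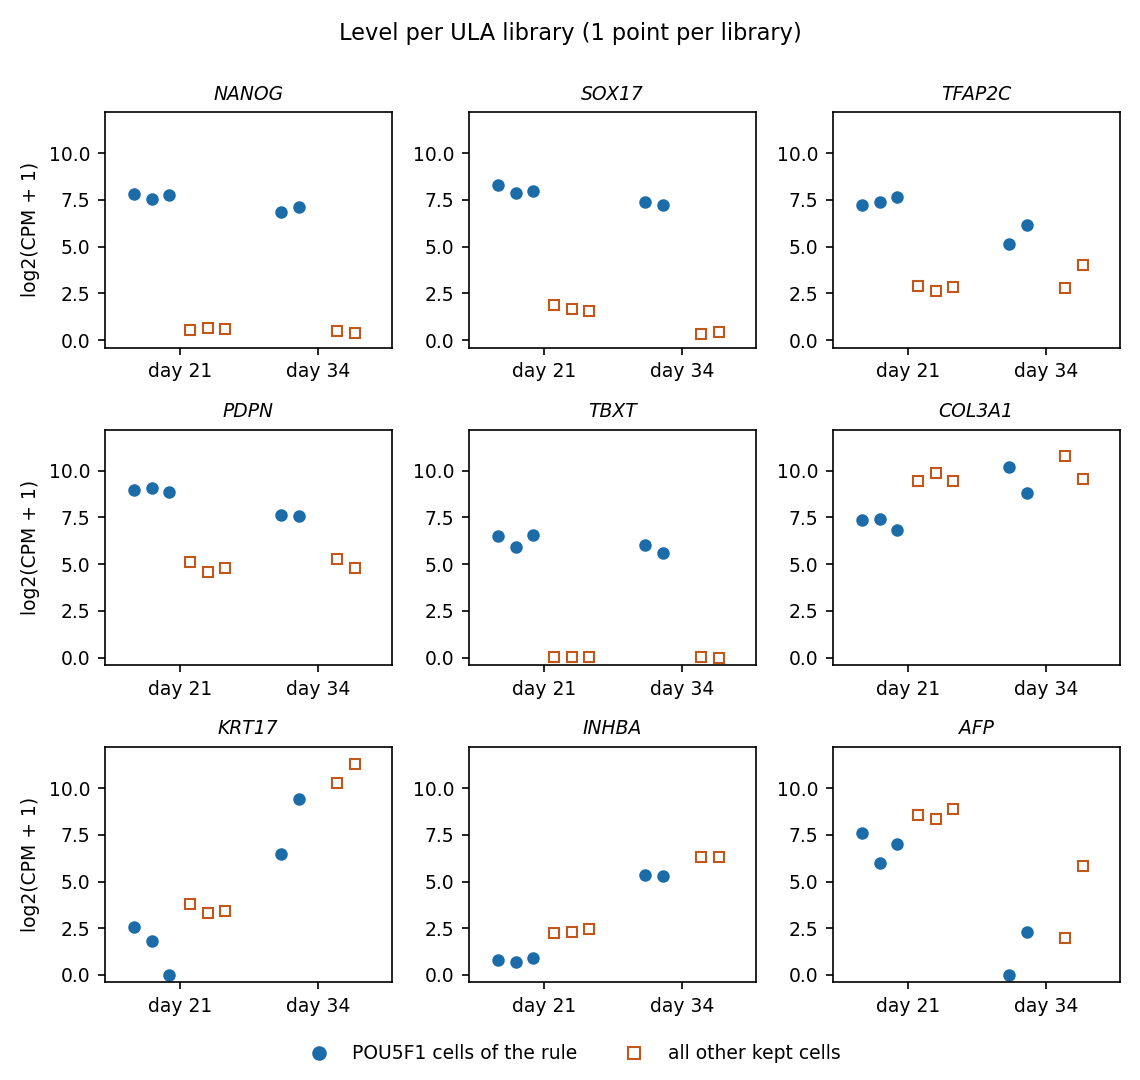
Level of 9 genes as log2(CPM + 1) (y axis) at day 21 and day 34 (x axis), with 1 point per ULA library for the POU5F1 cells (filled) and the other kept cells (open squares). PDPN is 459 to 533 CPM at day 21 and 190 to 200 CPM at day 34 in the POU5F1 cells, while INHBA and KRT17 are higher at day 34 in both kinds of cells.

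Several genes that were higher at day 34 in the POU5F1 cells were also higher at day 34 in the other cells. KRT17, a keratin of basal epithelium, stood at 5.03, 2.52 and 0 CPM at day 21 and 86.9 and 683 CPM at day 34 in the POU5F1 cells (7.01 ± 0.71, adjusted p = 0.00051). In the other cells it went from 8.95 to 13.1 CPM to 1240 and 2490 CPM. The summed level of the 7 squamous genes in the POU5F1 cells was 11.5 to 19.52 CPM at day 21, 13.03 CPM in day 34 replicate 1 and 924 CPM in day 34 replicate 2, so replicate 2 alone was high. In the other cells it was 34.31 to 52.02 CPM at day 21 and 574.5 and 2034 CPM at day 34. The part of squamous RNA or cells in the day 34 values was not tested. Of the list only SFN could be tested and it was higher (3.39, adjusted p = 0.014), at 8.69 and 159 CPM at day 34 against 5.03 to 9.44 CPM at day 21. INHBA, the activin A subunit, stood at 0.719, 0.63 and 0.888 CPM and then at 39.1 and 38.8 CPM (5.41), with 3.74 to 4.54 CPM and then 77.1 and 79.7 CPM in the other cells. The other named higher genes were the matrix genes MFAP4 (4.55) and FBN2 (4.39), HIF3A (4.49), the mesenchymal factor PRRX1 (4.11), HOXA10 (3.90) and KIF26B (3.88). FBN2 was at 187 CPM in day 34 replicate 1 and 15.5 CPM in replicate 2, so 1 library carried most of its level. FBN2, HIF3A, PRRX1, HOXA10 and KIF26B did not pass without that replicate, where MFAP4 and INHBA could not be tested. KIF26B also did not pass without day 21 replicate 2, and neither it nor PRRX1 passed with DESeq2.

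Mesenchymal genes moved with day in the POU5F1 cells. Of 9 tested, 5 were higher at day 34 (COL3A1, COL1A1, COL1A2, TAGLN and TWIST1) and none was lower, with a median of 1.98. COL3A1 stood at 164, 169 and 111 CPM at day 21 and at 1170 and 443 CPM at day 34 (2.38 ± 0.35, adjusted p = 0.0035), against 700 to 1730 CPM in the other cells. It was detected in 27.6%, 23.5% and 20.9% of the day 21 POU5F1 cells and in 75.0% and 53.8% of those at day 34. All 10 mesenchymal genes had UMIs in the POU5F1 cells of every library. Their summed level in the POU5F1 cells was 366.9 to 553.3 CPM at day 21 and 1169 to 2467 CPM at day 34, against 2114 to 2654 CPM and then 2691 to 4464 CPM in the other cells. The part of mesenchymal RNA or cells in the day 34 values was not tested. The number of mesenchymal genes passing was 2 without day 34 replicate 1, 2 without day 21 replicate 2 and 3 without day 21 replicate 3. With at least 2 UMIs of POU5F1 and at least 2 over the other genes of the rule as the condition, 3 passed.

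Several hepatocyte genes were lower at day 34 in the POU5F1 cells. AFP, alpha-fetoprotein, stood at 193, 63 and 126 CPM at day 21 and at 0 and 3.88 CPM at day 34 in the POU5F1 cells (-5.94 ± 0.93, adjusted p = 0.0048). In the other cells it was 321 to 464 CPM at day 21 and 2.89 and 56.4 CPM at day 34. Of 8 tested hepatocyte genes 3 were lower (APOA2, AFP and APOA1), with a median of -4.84, and 0 passed with at least 2 UMIs of POU5F1 and 2 over the other genes of the rule as the condition. Of 5 tested gut genes 1 was lower, FABP1, a fatty acid binding protein (-7.85). The summed level of the 12 hepatocyte genes was 231.7 to 1196 CPM in the day 21 POU5F1 cells and 43.43 to 93.18 CPM at day 34, where ALB, APOA2, APOB, FGA, HNF4A and TTR were at 0 in both libraries. In the other cells it was 2487 to 2889 CPM at day 21 and 97.74 to 863.1 CPM at day 34. The part of hepatocyte RNA in these values was not tested. Without day 34 replicate 1, 1 hepatocyte gene passed, and without day 21 replicate 2, 7 passed. APOA2 had no day 34 UMI in the POU5F1 cells and was at least 15.6-fold lower on a floor of 3 counts, and AL157778.1 was at least 4.4-fold lower. With the stricter membership above, APOA2, AFP, FABP1, AGR2 (-3.83) and MBNL3 (-4.53) did not pass. Without day 34 replicate 1, APOA2 (adjusted p = 0.06), AL157778.1, MBNL3 and AGR2 did not pass. MBNL3 did not pass with DESeq2. AGR2 and AL157778.1 also did not pass without day 21 replicate 3, nor MBNL3 without day 21 replicate 2 or 3.

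OLFM4 and NMU were higher in the POU5F1 cells than in the other cells over the 4 tested libraries, and both were lower at day 34 than at day 21 in the POU5F1 cells. OLFM4, a secreted glycoprotein, stood at 38.1, 104 and 48 CPM in the day 21 POU5F1 cells and had no UMI in either day 34 library, at least 10.8-fold lower on the floor of 3 counts, while the other cells held 0.165 to 0.901 CPM at day 21 and 0.412 and 13.5 CPM at day 34. At this depth day 34 replicate 1 of the POU5F1 cells cannot place OLFM4 above or below the other cells. In day 34 replicate 2 OLFM4 had no UMI, against 13.5 CPM in the other cells. On the floor of 3 counts that is below the other cells by a small margin only. NMU, the neuropeptide neuromedin U, stood at 53.2, 91.3 and 43.5 CPM and then at 4.34 and 3.88 CPM in the POU5F1 cells (-4.0 ± 0.74, adjusted p = 0.012), with 2.18 to 6.68 CPM and then 0.283 and 0.099 CPM in the other cells.

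Whether the change with day differed between the POU5F1 cells and the other cells was tested with an interaction term. Of 20489 genes 668 passed (3.26%), 183 with a more positive change (0.893%) and 485 with a more negative change (2.37%) in the POU5F1 cells. With DESeq2 217 genes passed, 84 more positive and 133 more negative, and the median over all genes moved from -0.29 to 0.14. Of 18 tested early germ cell genes, SOX17 changed more positively (1.93 ± 0.30, edgeR adjusted p = 4.5e-08), since in the other cells it went from 1.96 to 2.65 CPM to 0.258 and 0.341 CPM. Another 7 changed more negatively, and 4 with DESeq2. Of 10 mesenchymal genes 5 changed more positively in the POU5F1 cells (COL3A1, TWIST1, COL1A2, LUM and COL1A1), 3 with DESeq2 and 2 without day 34 replicate 1. TFAP2C (-2.72) and PDPN (-1.73) were among the 7 early germ cell genes, with TFAP2C at 5.9 and 15.2 CPM in the day 34 other cells. SOX15 (-4.0) and ITGA6 (-1.89) passed as well, and both were higher at day 34 in the other cells, SOX15 at 0.737 to 0.925 CPM and then 9.84 and 4.09 CPM. For NANOG (-0.24, adjusted p = 0.94), PRDM1 (-0.13), KIT (1.01), KRT17 (-0.68), INHBA (1.26), AFP (-2.41) and NMU (0.14) the difference of the day effect did not pass. The number of genes passing was 304 without day 34 replicate 1, 346 without day 21 replicate 2 and 425 without day 21 replicate 3. Of the 8 early germ cell genes that passed, KLF4 and LAMA4 did not without day 34 replicate 1.

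In the organoids of the orbital shaker (OS) arm, collected at day 25 with the longer dissociation, cells meeting the rule were rarer. The 14 OS libraries, treated with TGF-β1 (10 ng/ml), PA (500 µM) or OA (500 µM), or kept as controls or untreated, held 13 such cells of 85951 (0.01512%, 95% Wilson interval 0.00884% to 0.02588%). They came from 6 libraries, with at most 0.06966% of the cells of a library. Of the 13 cells, 11 held NANOS3 and 5 TAC3, while SOX17 was in 1, TFAP2C in 3, PRDM1 in 1, NANOG in 2 and SOX2 in none. With at least 2 UMIs of POU5F1 and 2 over the other genes of the rule, 2 OS cells and 268 ULA cells remained. Median depth per OS library ran from 1310 to 14124 UMIs, and after thinning to 3000 UMIs there were 5 of 54450 OS cells against 247 of 31903 ULA cells. Culture, day and dissociation differ together between the arms, so these values stand side by side without a test.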

How the data were processed

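Libraries were processed with Cell Ranger 3.0.2 on GRCh38, per the submitters' processing notes, and the authors deposited filtered cell matrices holding unnormalised UMI counts. Gene coordinates are GENCODE v44, matched by gene ID. Cells were kept at 500 or more genes and 20% or less mitochondrial counts. The members and the gene lists were chosen with earlier results of these data known. Counts were summed per library and class, and tested with edgeR 4.0.16 (quasi-likelihood, R 4.3.3) after filterByExpr; DESeq2 1.42.0 was an alternative. The filter kept a gene on its counts in either class. A gene nearly absent from the comparison cells could therefore enter only by being high in the members. The 4 genes of the rule were described, not tested. Comparison with the other cells used the 4 libraries with at least 10 members. Genes were named as the 10 most higher and 5 most lower per comparison of classes and 8 each way between days, past an adjusted p of 0.05, in 1 direction in every library (or with no overlap between days) and at a mean of 20 CPM, without mitochondrial and ribosomal protein genes. Shares were compared by exact permutation over libraries. Scrublet, run in Scanpy 1.11.5, called almost no doublets in 4 ULA libraries and 13.93% of kept cells in day 34 replicate 2. As an alternative the highest scores, 0.8% per 1000 barcodes, were removed, which took out 32 members. At day 21 these were 11 of 76, 11 of 115 and 9 of 67, beside 5.269%, 5.886% and 5.699% of all kept cells. At day 34 they were 0 of 8 and 1 of 26, beside 3.606% and 10.68%. On simulated counts, changes were placed only in genes with a mean of at least 20 counts over all sums of a comparison. Recovery of genes below that mean was not measured. The other cells held 402985838 UMIs against 4593613 in the members, so where they entered a chosen gene could have few counts in the members. All sums were simulated from 1 shared profile, without differences between libraries. The comparison with the other cells recovered 59.8% of genes changed by 1 on the log2 scale and 74.8% of those changed by 2. The comparison of days within members recovered 18.4% and 80.4%, and the interaction 8.65% and 40.6%.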

Additional observations from a re-analysis of the deposited data

Results flagged for a closer look

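These results were picked out because the change from day 21 to day 34 differed between the POU5F1 cells and the other cells by the interaction test (edgeR, adjusted p under 0.05). In all, 668 genes differed. The values are log2 differences of the day effect, POU5F1 cells minus other cells.

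Among early germ cell genes, SOX17 was at 1.93, SOX15 at -4.0, TFAP2C at -2.72, ITGA6 at -1.89, KLF4 at -1.78, PDPN at -1.73, LAMA4 at -1.47 and RAB15 at -0.80. KLF4 and LAMA4 did not pass without day 34 replicate 1, nor RAB15 without day 21 replicate 2 or day 34 replicate 2. KLF4, LAMA4 and RAB15 did not pass with DESeq2.

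Among genes named for their change with day, MFAP4 was at 3.41, FBN2 at 2.81, PRRX1 at 2.74, HOXA10 at 2.57, KIF26B at 2.49, HIF3A at 1.98 and MBNL3 at -3.45. None of these 7 passed without day 34 replicate 1, the library with 8 POU5F1 cells, nor did APOA2 and AL157778.1. OLFM4 (-18.1), AL157778.1 (-12.6) and APOA2 (-11.6) had no UMI in the day 34 POU5F1 cells, so their fitted values depend on the prior count and are no bounds. Of the 10 named genes, 8 did not pass with DESeq2, the exceptions being OLFM4 and MFAP4. HIF3A and MBNL3 also did not pass without day 21 replicate 2 or 3, APOA2 without day 21 replicate 1, and APOA2 and MBNL3 without day 34 replicate 2. With the stricter membership APOA2, HIF3A and MBNL3 did not pass, and MBNL3 did not pass without the filter on low counts.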

How the results depend on the processing

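The lower share of POU5F1 cells at day 34 kept its direction under every alternative run, with differences of -0.979 to -1.525 percentage points when 1 library was left out and -1.774 with a stricter cell filter. Against the other cells, 6431 genes passed and 3861 without the library block. Against POU5F1-only cells, 806 passed, 1731 without a filter on low counts, 522 without the block and 408 to 1200 with 1 library left out. Between the days 167 passed, 598 without the filter, 88 with the stricter membership and 81 to 441 with 1 library left out. The interaction gave 668, 217 with DESeq2 and 304 to 880 with 1 library left out.

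Among lists against the other cells, the later germ cell count of 2 was 1 without the highest doublet scores and 1 with all 5 libraries. Without the block, amnion fell from 10 to 6, hepatocyte from 10 to 4 and cell cycle from 10 to 0. The mesenchymal count against POU5F1-only cells was 1 without the block. Between the days, early germ cell genes passing as lower were 1 to 3 with 1 library left out (and 1 as higher without day 34 replicate 2), mesenchymal genes passing as higher 3 with the stricter membership and 2 to 7 with 1 left out, and hepatocyte genes passing as lower 7 without the filter, 0 with the stricter membership and 1 to 7 with 1 left out. In the interaction, early germ cell genes with a more negative change were 4 with DESeq2, and mesenchymal genes with a more positive change 3 with DESeq2 and 2 to 5 with 1 left out (and 1 more negative without day 34 replicate 2). L1TD1 reversed in the interaction from -0.89 to 0.30 (adjusted p = 0.93) without day 34 replicate 1, and was -2.22 without day 34 replicate 2. The cause was not tested.

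Replicate numbers are shared by the days. The deviations of same-numbered libraries from their day means correlated at 0.062 and -0.0053 in the POU5F1 cells. In the other cells the values were -0.19 and -0.29. The day 34 deviations are mirror images by construction, so these values cannot say whether same-numbered libraries share a culture. With a replicate block the share differed by -1.525 points, 305 genes passed between the days and 6 hepatocyte genes passed. Of single genes, with all comparisons pooled, 1916 of the values under alternatives kept direction and side of the threshold, 80 fell short of it, 32 newly passed and 1 reversed. The 1916 include genes that did not pass in the main fit either, and genes not testable under an alternative are left out. They are no measure of any single comparison, since 8 of the 10 named genes of the interaction fell short with DESeq2. The comparison of days rests on 34 POU5F1 cells at day 34.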
